A study of Homo sapiens with 6 samples.

Results

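The accessible sites of RB-depleted, hormone-deprived prostate cancer cells were compared with those of androgen-treated control cells, to ask whether losing RB without hormone opens the sites that androgen-treated cells have open. The cells were LNCaP, an established human prostate cancer line that carries the androgen receptor and responds to androgen. ATAC-seq was used, in which a transposase inserts adapters into accessible DNA so that stretches with many insertions are called as peaks. The shRB CDT group carried a hairpin against RB and was kept for 72 hours in CDT, which the study's design text calls hormone deficient. The shCON DHT group carried a control hairpin and was given dihydrotestosterone (DHT), the potent androgen made from testosterone, for 3 hours after its 72 hours in CDT. Both lines carried a hairpin and both groups passed through 72 hours of CDT, so the groups differed in the hairpin and in the final 3 hours of hormone. The third group of the series, shCON CDT, carried the control hairpin and 72 hours of CDT without DHT, and served here as the hormone-deprived baseline. RB was lowered by a hairpin and not deleted, the level of RB left was not analysed here, and no shRB cells with DHT were among the samples used. The labels do not say whether a group's replicates were separate cultures, and they do not spell out CDT. The samples were chosen by their labels, 4 of the 6 in the series, and the deposited lists of these groups held 27684 of its 39780 peaks. Each list combines replicates 1 and 2, so it gives 1 value per group. No difference between the groups can be set against the spread between replicates, and no test is given. Intervals in brackets are 95% intervals over peaks, exact (Clopper-Pearson) for shares. They cover counting error only, and neighbouring peaks are not independent.

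RB is a repressor of the cell cycle: it binds E2F transcription factors at the promoters of replication genes and recruits enzymes that keep chromatin closed there, until cyclin-dependent kinases release it. The androgen receptor is a hormone-activated transcription factor that, once DHT is bound, enters the nucleus and binds mostly distal enhancers, many of them already opened by the forkhead factor FOXA1. Loss of RB is known from prostate cancers that progress under androgen deprivation, which is why the accessible sites of these groups are of interest side by side.

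The shRB CDT list held 14788 peaks over 15.0 Mb of the hg19 genome and the shCON DHT list held 12896 peaks over 10.3 Mb. The shCON CDT list held 12096 peaks over 11.7 Mb. Peaks were narrowest in shCON DHT, with a median of 776 bp, against 937 bp without hormone in shCON CDT and 992 bp in shRB CDT. Every list carries a score per peak with a cap of 1000, which 35.1% of the shRB CDT peaks reached, 27.0% of those of shCON DHT and 32.5% of those of shCON CDT. The score is the authors' own value and is used here only to order peaks inside each list. Read counts were not analysed here, so the depth behind them is unknown, and a site that is not listed was not shown to be closed.

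Most accessible sites of the androgen-treated cells were also listed after RB depletion without hormone, and a smaller share of the RB-depleted cells' sites was listed in the androgen-treated cells. Of the shCON DHT peaks, 8952 of 12896 (69.4%, 68.6 to 70.2) were overlapped by a shRB CDT peak by at least 1 bp. Of the shRB CDT peaks, 8558 of 14788 (57.9%, 57.1 to 58.7) were overlapped by a shCON DHT peak. Joined by overlap, the peaks of both lists formed 18569 sites. A peak of each list lay in 8395 of these sites (45.2%), a shRB CDT peak alone in 6230 (33.6%) and a shCON DHT peak alone in 3944 (21.2%). The shared sequence came to 7.49 Mb, which is 72.5% of the sequence covered in shCON DHT and 50.04% of that covered in shRB CDT. Few peaks lay near the limit of the overlap rule. Among shCON DHT peaks, 38 were shared through an overlap of 50 bp or less and 35 unshared ones lay within 50 bp of a shRB CDT peak. For shRB CDT peaks these numbers were 27 and 25.

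Set against the hormone-deprived baseline, the order differed by the list that was followed. Of the shCON DHT peaks, 63.3% were overlapped by a shCON CDT peak, fewer than the 69.4% overlapped by a shRB CDT peak. There were 1431 shCON DHT peaks overlapped in shRB CDT but not in shCON CDT, and 647 overlapped in shCON CDT but not in shRB CDT. Of these 2 kinds together, the former made up 68.9% (66.8 to 70.9). In contrast, 59.1% of the shRB CDT peaks were overlapped by a shCON CDT peak, slightly more than the 57.9% overlapped by a shCON DHT peak. There were 1306 shRB CDT peaks overlapped in shCON DHT but not in shCON CDT, and 1493 overlapped in shCON CDT but not in shCON DHT, which makes 46.7% (44.8 to 48.5) of these on the DHT side.

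The shRB CDT list is the longest of the lists, and a longer list overlaps more peaks of any other. With every list cut by score to 12096 peaks, 1126 shCON DHT peaks were in shRB CDT but not in shCON CDT and 818 were the reverse, a share of 57.9% (55.7 to 60.1) on the RB side, closer to an even division than in the full lists. In the same cut lists 1021 shRB CDT peaks were in shCON DHT but not in shCON CDT and 1317 were the reverse, a share of 43.7% (41.6 to 45.7) on the DHT side. The shCON CDT peaks showed the same side: 1387 were in shRB CDT but not in shCON DHT, and 766 were the reverse. In lists of one length, both groups of control cells thus had more peaks in common with the RB-depleted cells than with each other. The RB-depleted cells had more in common with the hormone-deprived than with the androgen-treated control cells. Equal length does not equalise width, and wider peaks have more sequence in which to overlap. Median widths in the full lists were 992 bp in shRB CDT, 937 bp in shCON CDT and 776 bp in shCON DHT. No setting fixed length and width together, so the part of width in these orders was not tested. Among the highest-scoring 50% of every list, the order for shRB CDT peaks was not resolved, with 904 and 865 on the DHT and CDT sides (51.1%, 48.7 to 53.5). These lists were not of one length: shCON DHT held 6448 peaks and shCON CDT 6048, which favours the DHT side. All of these counts share lists with each other and are not independent.

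Sharing followed the score closely in both lists. At the cap, 3413 of 3478 shCON DHT peaks (98.1%, 97.6 to 98.6) had a shRB CDT counterpart. The peaks below the cap were ordered into 10 equal classes. In the highest of these classes 92.3% (90.4 to 93.9) of shCON DHT peaks were shared, in class 6 the share was 69.1% (66.0 to 72.0), in class 5 it was 50.3% (47.1 to 53.6), and in the lowest it was 23.5% (20.8 to 26.3). The largest step between neighbouring classes of this list lay between class 6 (scores 580 to 635) and class 5 (536 to 579). Among shRB CDT peaks, 4833 of 5192 at the cap (93.1%, 92.4 to 93.8) had a shCON DHT counterpart. The share was 76.1% (73.2 to 78.7) in the highest class below the cap, 43.7% (40.6 to 46.9) in class 7 and 14.7% (12.5 to 17.1) in the lowest. At the cap and in each of the 10 classes the shRB CDT share was below the shCON DHT share of the class with the same number, although the classes of the lists cover different scores.

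**Figure D1:**
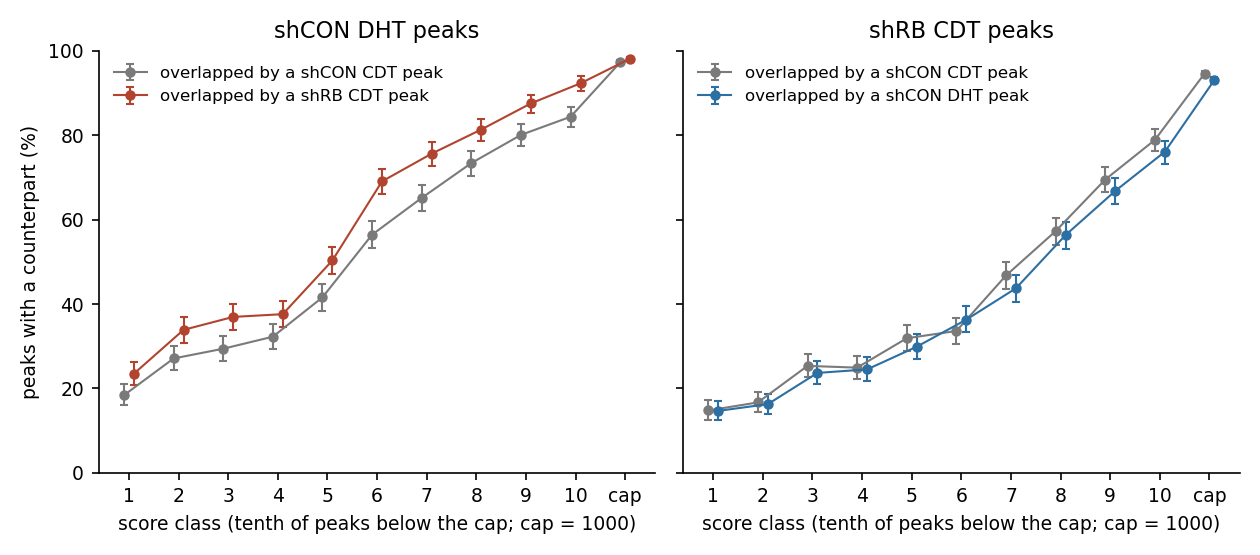
Percent of shCON DHT peaks (left) and shRB CDT peaks (right) with an overlapping peak in the other list (coloured) or in shCON CDT (grey), by score class, from the lowest of 10 classes below the cap to the cap itself; bars are exact 95% binomial intervals. On the left the shRB CDT points lie above the shCON CDT points in every class, from 23.5% against 18.4% to 98.1% against 97.2%, and on the right the points of both other lists lie close together.

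Among shCON DHT peaks the share in shRB CDT was above the share in shCON CDT at every score, whereas for shRB CDT peaks the other lists lay close together. Of shCON DHT peaks in class 6, 69.1% were in shRB CDT and 56.4% (53.2 to 59.6) were in shCON CDT. In class 10 these shares were 92.3% and 84.4% (81.9 to 86.6). At the cap they were 98.1% and 97.2% (96.6 to 97.8). Both shares are over the same peaks, so overlap of their intervals does not judge the difference. There were 78 capped shCON DHT peaks in shRB CDT but not in shCON CDT, and 47 the reverse. For shRB CDT peaks, the shares in shCON DHT and in shCON CDT were 93.1% and 94.6% (93.9 to 95.2) at the cap. There were 183 capped shRB CDT peaks in shCON DHT but not in shCON CDT, and 261 the reverse. Below the cap these counts were 1123 and 1232. In class 9 the shares were 66.8% (63.7 to 69.8) and 69.5% (66.5 to 72.4). In lists of one length, the RB side still led among shCON DHT peaks with scores from 656 to 797, at 76.1% (74.0 to 78.1) against 71.2% (69.0 to 73.3). Among those from 433 to 487 the shares lay close together, at 29.2% (27.0 to 31.4) against 28.7% (26.5 to 30.9).

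Width ran alongside the score. Shared shCON DHT peaks were 902 bp wide at the median (892 to 911) and unshared ones 498 bp (489 to 509). Shared shRB CDT peaks were 1134 bp wide (1123 to 1146) and unshared ones 758 bp (743 to 773). Wider peaks have more sequence in which to overlap, so part of this is built into the rule. Within peaks at the cap, the narrowest class of 5 equal classes by width, 150 to 712 bp, still had 93.5% (91.4 to 95.2) of shCON DHT peaks shared, against 697 of 698 in the widest, 1284 to 2491 bp. Below the cap the range was far larger, from 30.8% (28.7 to 32.9) among the narrowest shCON DHT peaks to 87.5% (85.9 to 89.0) among the widest. The shRB CDT peaks below the cap went from 15.3% (13.7 to 17.0) to 56.4% (54.2 to 58.7). Among the widest shRB CDT peaks below the cap, 1083 of 1919 thus had a listed counterpart in androgen-treated cells.

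Sites that the RB-depleted and the androgen-treated cells had in common were mostly sites that hormone-deprived control cells already had. Of the 8952 shared shCON DHT peaks, 7521 (84.0%, 83.2 to 84.8) overlapped a shCON CDT peak and 1431 (16.0%) did not. Of the 8558 shared shRB CDT peaks, 7252 (84.7%, 84.0 to 85.5) overlapped a shCON CDT peak and 1306 (15.3%) did not. The unshared peaks divided the other way. Of the 3944 unshared shCON DHT peaks, 647 (16.4%, 15.3 to 17.6) were in shCON CDT and 3297 were in neither other list. Of the 6230 unshared shRB CDT peaks, 1493 (24.0%, 22.9 to 25.04) were in shCON CDT and 4737 were in neither.

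**Figure D2:**
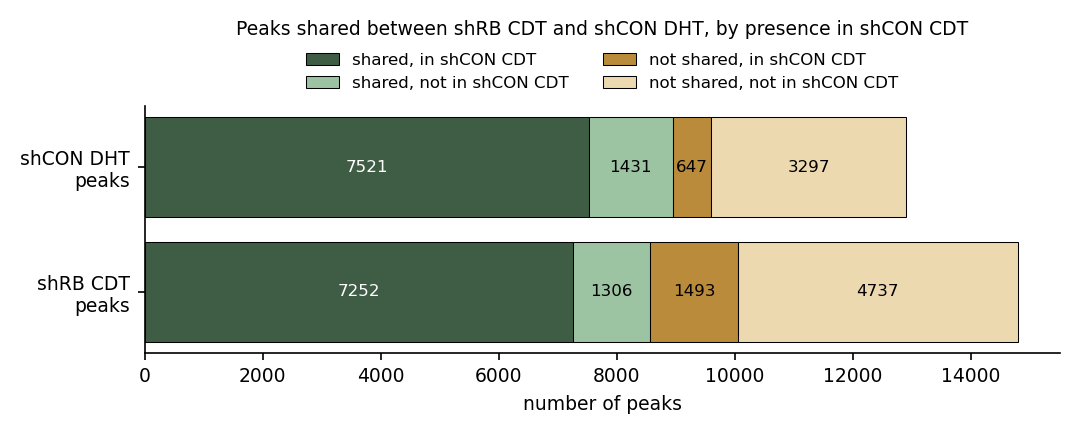
Number of peaks of each list that were or were not shared between shRB CDT and shCON DHT, split by overlap with a shCON CDT peak. The part shared and present in shCON CDT is the largest in both lists (7521 and 7252 peaks), and the next largest is the part in neither other list (3297 and 4737 peaks).

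Whether a site was in the baseline list went with a large difference in sharing. Of shCON DHT peaks that overlapped a shCON CDT peak, 92.1% (91.5 to 92.7) were in shRB CDT, and of those that did not, 30.3% (29.0 to 31.6) were. Of shRB CDT peaks that overlapped a shCON CDT peak, 82.9% (82.1 to 83.7) were in shCON DHT, and of those that did not, 21.6% (20.6 to 22.7) were. Below the cap the shares were 87.5% and 29.2% for shCON DHT peaks and 67.9% and 19.5% for shRB CDT peaks. The sites absent from shCON CDT are defined through the same list for both groups, so the overlap of these sets is a breakdown of the shared peaks and not a measure of likeness. Score and width moved with these classes. The shCON DHT peaks shared and in shCON CDT stood at a median score percentile of 69.0 and were 941 bp wide. Those shared and missing from shCON CDT stood at 38.4 and 697 bp, those not shared but in shCON CDT at 34.4 and 645 bp, and those in shCON DHT alone at 20.6 and 479 bp. The part of score and width in the sharing was not tested.

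Followed from the baseline, most hormone-deprived control sites were listed under both conditions. Of the 12096 shCON CDT peaks, 7308 (60.4%, 59.5 to 61.3) were in both shRB CDT and shCON DHT, 1548 (12.8%) in the former alone, 598 (4.94%) in the latter alone and 2642 (21.8%) in neither. The peaks found in both were 1087 bp wide at the median, those that only shRB CDT had 832 bp, those that only shCON DHT had 757 bp and those in neither 588 bp. At the cap, 3719 of 3931 (94.6%) were in both, 144 were kept by shRB CDT alone, 33 by shCON DHT alone and 35 by neither.

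Several sites absent from the hormone-deprived list had a capped peak in 1 of the other groups and a peak of any score in the other. They were taken as the highest-scoring shared peaks of each list, wider first at equal score. On chromosome 12 from 1702277 to 1704588 (hg19, counted from 1, as are all positions here), shRB CDT had a peak of 2312 bp at the score cap. In shCON DHT the site held a peak of 1436 bp with a score of 696, and shCON CDT had no peak within 66.0 kb. On chromosome 17 from 78009135 to 78011061 the shRB CDT peak was 1927 bp wide at the cap and the shCON DHT peak was 1534 bp wide with a score of 476. On chromosome 5 from 77943776 to 77945700 the shRB CDT peak was 1925 bp wide at the cap and the shCON DHT peak was 1379 bp wide with a score of 442. The high score and the large width in shRB CDT follow from the choice of these 3 sites, so the narrower, lower-scoring shCON DHT peaks show no difference between the groups.

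From the shCON DHT side, the top shared site absent from shCON CDT was on chromosome 18 from 43753355 to 43754770, where the shCON DHT peak was 1416 bp wide at the cap and the shRB CDT peak 1653 bp wide with a score of 687. The next was on chromosome 20 from 34741859 to 34743121, with 1263 bp at the cap in shCON DHT and 1649 bp and a score of 797 in shRB CDT. On chromosome 3 from 51704806 to 51706031 shCON DHT had 1226 bp at the cap and shRB CDT 1340 bp with a score of 977. The nearest shCON CDT peaks were 74.4, 102.6 and 170.4 kb away. In these 3 sites the score was higher in shCON DHT by choice, and the shRB CDT peak was nonetheless the wider one.

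Some high-scoring sites were in 1 list alone. In shRB CDT, 98 of 5192 peaks at the cap overlapped no peak of shCON DHT or shCON CDT. In shCON DHT, 18 of 3478 peaks at the cap overlapped no peak of shRB CDT or shCON CDT. Over all scores, 32.0% of shRB CDT peaks and 25.6% of shCON DHT peaks were in neither other list. The top shRB CDT peak of this kind lay on chromosome 16 from 52579964 to 52581892, was 1929 bp wide, and had its nearest neighbours at 109.9 kb in shCON DHT and 507 kb in shCON CDT. The next, on chromosome 19 from 52206373 to 52208072, was 1700 bp wide and had neighbours at 13.2 kb in shCON DHT and 12.2 kb in shCON CDT. The one on chromosome 17 from 8125542 to 8127195 was 1654 bp wide, with a shCON DHT peak 24.9 kb away. In shCON DHT the top peaks found in no other list were narrower. They lay on chromosome 17 from 42200598 to 42201533 (936 bp), on chromosome 2 from 23968270 to 23969056 (787 bp) and on chromosome 20 from 25387837 to 25388616 (780 bp). Their nearest shRB CDT peaks were 62.3, 180.2 and 16.0 kb away.

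Other capped sites stood far from anything listed in the other group. The shRB CDT peak on chromosome 10 from 20104393 to 20106587 was 2195 bp wide and 1156 kb from the nearest shCON DHT peak, while shCON CDT had a peak of 1530 bp there with a score of 754. A shRB CDT peak of 1480 bp on chromosome 3 from 153838668 to 153840147 was 957 kb from shCON DHT and also overlapped a shCON CDT peak, of 1348 bp and score 652. On chromosome X from 132548513 to 132549927 the shRB CDT peak of 1415 bp was 957 kb from shCON DHT and 569 kb from shCON CDT. The farthest capped shCON DHT peaks were nearer to the other list. On chromosome 4 from 82392634 to 82393432 a peak of 799 bp was 256 kb from shRB CDT and overlapped a shCON CDT peak of 1271 bp. On the same chromosome from 89744246 to 89744726 a peak of 481 bp was 229.6 kb from shRB CDT and about as far from shCON CDT. The peak on chromosome 2 from 23968270 described above was the next farthest. The larger of these distances belong to shRB CDT, whose distances were measured to a shorter list. Of its 5192 peaks at the cap 359 were unshared, against 65 of 3478 in shCON DHT.

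Where both groups had a peak, the peaks sat at nearly the same place and were wider in shRB CDT than in shCON DHT. Exactly 1 peak of each list met at 7714 sites. The midpoints there were 96.5 bp apart at the median (94.0 to 99.5), and 288.5 bp or less apart at 90% of sites. The shRB CDT peak was 1.17 times (1.16 to 1.18) as wide as the shCON DHT peak at the median, and wider at 5663 of 7714 sites (73.4%). The shRB CDT peak reached 63 bp further (58 to 68) on the left and 55 bp further (49 to 60) on the right, so that both edges lay further out by similar amounts. The shCON DHT peak lay wholly inside the shRB CDT peak at 3356 sites (43.5%, 42.4 to 44.6), and the shRB CDT peak inside the shCON DHT peak at 879 (11.4%, 10.7 to 12.1). At 608 sites the shRB CDT peak was at least 2 times as wide, and at 42 sites the shCON DHT peak was.

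**Figure D3:**
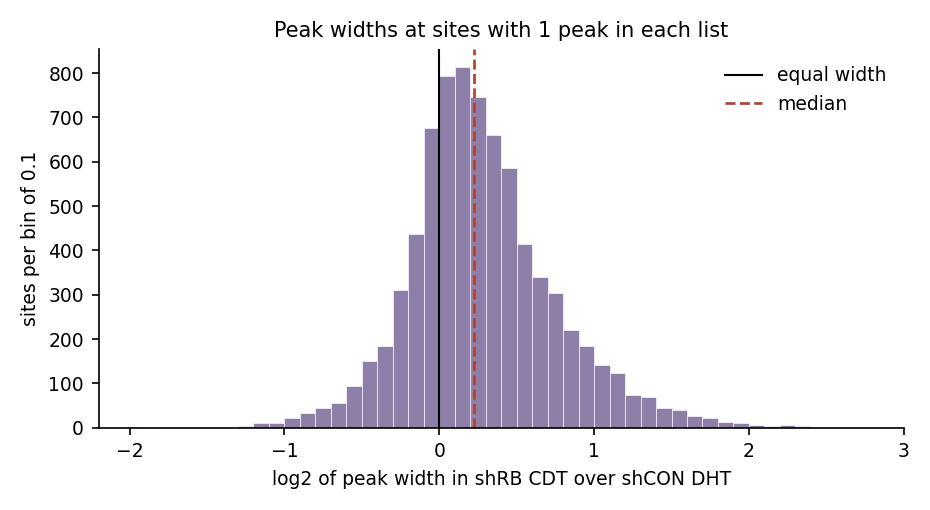
Number of sites by the log2 ratio of peak width in shRB CDT over shCON DHT, at the 7714 sites with exactly 1 peak in each list; the solid line marks equal width and the dashed line the median ratio of 1.17. The bulk of the sites lies to the right of equal width, with a longer tail on that side.

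The shRB CDT peaks were also the wider ones within classes of score, baseline status and width. By chromosome the interval lay above 1 on each autosome and on chromosome X, but not on chromosome Y, with 1.06 (0.846 to 1.14) over 16 sites. The ratio was 1.14 (1.13 to 1.15) where both peaks were at the score cap and 1.20 (1.18 to 1.22) where neither was. It was 1.16 (1.15 to 1.17) where the site was also in shCON CDT and 1.22 (1.18 to 1.255) where it was not. Sorted into 5 classes by the mean width of the pair, the ratio lay between 1.13 (1.11 to 1.15) in the narrowest class and 1.18 (1.17 to 1.21) in the class from 1122.5 to 1315 bp. Side by side, the ratio of shRB CDT to shCON CDT widths was 1.04 (1.04 to 1.05) over their 8104 such sites, and that of shCON DHT to shCON CDT was 0.898 (0.890 to 0.905) over 7119. These ratios share lists. Relative to hormone-deprived control cells, peaks were narrower after DHT by more than they were wider after RB depletion.

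At the 6220 sites with exactly 1 peak in each of the 3 lists, the median width was 969 bp in shCON DHT, 1095 bp in shCON CDT and 1165 bp in shRB CDT. The shRB CDT width was nearer to the shCON DHT width than to the shCON CDT width, on a log2 scale, at 2575 of 6203 sites (41.5%, 40.3 to 42.8). With each list's widths rescaled to its own median the share was 44.2% (43.0 to 45.5). The shRB CDT midpoint was nearer to the shCON DHT than to the shCON CDT midpoint at 47.3% (46.0 to 48.5) of sites. By width and by position, the RB-depleted sites were thus nearer to the hormone-deprived control more often than to the androgen-treated one.

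Wider shRB CDT peaks also bridged shCON DHT peaks more often than the reverse. There were 539 shRB CDT peaks that overlapped 2 or 3 shCON DHT peaks, and 163 shCON DHT peaks that overlapped 2 shRB CDT peaks. The most unequal pair lay on chromosome 10, where a shRB CDT peak of 2299 bp, from 47586649 to 47588947, covered a shCON DHT peak of 232 bp, 9.91 times narrower. There was no shCON CDT peak at that site. On chromosome 1 from 194072199 to 194074059 a shRB CDT peak of 1861 bp covered a shCON DHT peak of 231 bp, and shCON CDT had a peak of 2094 bp. In the other direction, on chromosome 12 from 125050798 to 125052680, a shCON DHT peak of 1883 bp at the cap covered a shRB CDT peak of 407 bp, also at the cap, which is 4.63 times narrower. On chromosome 5 a shCON DHT peak from 179232401 to 179234041 was 1641 bp wide and met a shRB CDT peak of 415 bp.

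The score cap was reached in both lists at many of the shared sites. Both peaks were at the cap at 2674 of the 7714 sites with 1 peak in each list (34.7%, 33.6 to 35.7), only the shRB CDT peak at 1742 (22.6%), only the shCON DHT peak at 418 (5.42%) and neither at 2880 (37.3%). More of the whole shRB CDT list was at the cap (35.1% against 27.0%), and scores order peaks only within a list. The 1742 and 418 sites thus do not compare accessibility between the groups. As a description across sites, which share libraries and are not independent, Spearman's rho between the scores was 0.548 over all 7714 sites and 0.214 over the 2880 below the cap in both lists. For widths it was 0.580 and 0.492. Setting aside the capped peaks narrows the range of scores, so the fall in the first measure is partly built in. It also removes wider peaks. The median widths in shRB CDT and shCON DHT were 1232.5 and 1044 bp where both peaks were at the cap. Where neither was, they were 1030 and 826.5 bp.

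The largest differences in rank were found at sites with a capped peak in 1 list and one close to the lowest score in the other. On chromosome 12 from 48212415 to 48214120 the shRB CDT peak was at the cap and the shCON DHT peak, 1137 bp wide, scored 414. On chromosome 1 from 161409330 to 161410631 the shRB CDT peak was at the cap and the shCON DHT peak scored 415. Neither site overlapped a shCON CDT peak. The reverse was seen on chromosome 10, where the shCON DHT peak from 99185401 to 99186033 was at the cap and the shRB CDT peak scored 416, and on chromosome 5, where the shCON DHT peak from 138060704 to 138061352 was at the cap and the shRB CDT peak also scored 416. Both of these sites had a shCON CDT peak, with scores of 761 and 845. In both, the shRB CDT peak was the wider one (957 and 1085 bp against 633 and 649 bp), so rank and width pointed in opposite directions there.

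Sites found in 1 group alone mostly lay more than 10 kb from any site of the other group. The nearest shRB CDT peak was 55.1 kb (52.4 to 59.7) from an unshared shCON DHT peak at the median. The nearest shCON DHT peak was 49.4 kb (47.1 to 51.7) from an unshared shRB CDT peak. Shared peaks of a list were themselves 52.8 kb (shCON DHT) and 61.1 kb (shRB CDT) from the next one along the chromosome at the median. That spacing runs only forward, to shared peaks of the same list. The distances of unshared peaks are to the nearest peak on either side in the whole other list. These measures are unlike, so they do not compare shared with unshared sites. Only 208 of 3944 unshared shCON DHT peaks (5.27%) and 298 of 6230 unshared shRB CDT peaks (4.78%) lay within 1 kb of the other list. At the far end, 69 unshared shCON DHT peaks (1.75%, 1.36 to 2.21) and 37 unshared shRB CDT peaks (0.594%, 0.418 to 0.818) were at least 1 Mb from any peak of the other list, even though shCON DHT peaks were measured to the longer list. The order of the medians depended on the setting: among the highest-scoring 50% of every list they were 65.9 kb for shCON DHT and 80.02 kb for shRB CDT, and with peaks reset to 500 bp both were 47.1 kb.

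**Figure D4:**
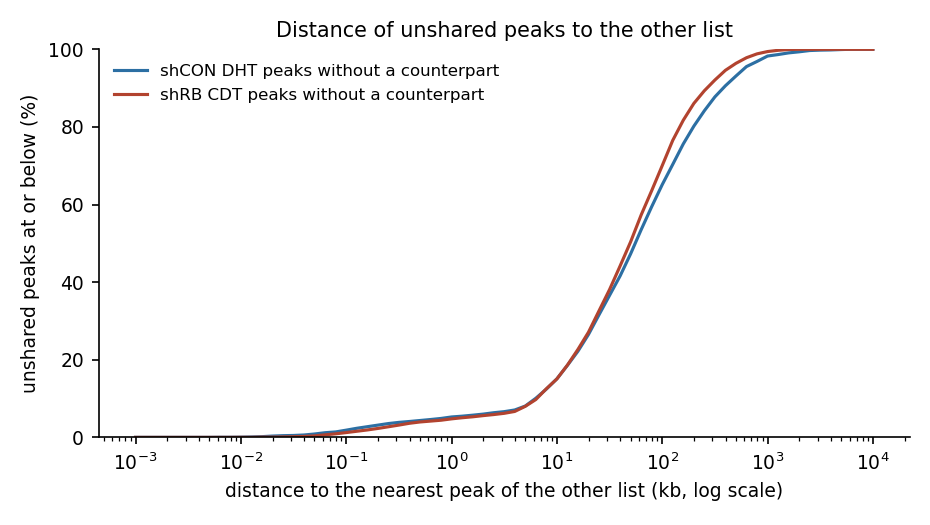
Cumulative percent of unshared peaks by distance to the nearest peak of the other list, in kb on a log scale. The curves lie together up to about 10 kb and then part, with unshared shCON DHT peaks the more remote (median 55.1 kb against 49.4 kb).

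Unshared sites of the androgen-treated cells also lay farther from the shared sites. The nearest shared peak of the same list was 100.9 kb away (95.5 to 107.0) from unshared shCON DHT peaks and 72.1 kb away (68.8 to 75.5) from unshared shRB CDT peaks. The spacing of the shared peaks themselves, measured from one to the next along the chromosome, was 52.8 kb (50.8 to 54.5) in shCON DHT and 61.1 kb (59.2 to 63.3) in shRB CDT. Unshared peaks at the cap were closer in, at 34.3 kb (8.60 to 56.6) in shCON DHT and 38.2 kb (31.9 to 47.4) in shRB CDT. Unshared peaks that were also in shCON CDT lay at 63.9 kb in shCON DHT and 54.2 kb in shRB CDT, and those in neither other list at 110.7 and 77.2 kb.

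Runs of at least 5 neighbouring sites in 1 list only spanned more sequence in the androgen-treated cells, but they were fewer there. Along the joined sites, 41 runs of at least 5 neighbouring sites were in shCON DHT only, with a median span of 1030 kb (795 to 1520), and 98 such runs were in shRB CDT only, with a median span of 318 kb (233 to 465). Runs of at least 5 sites held 6.06% of the shCON DHT sites without a counterpart and 8.70% of those of shRB CDT. Sites in both lists formed 284 such runs, with 21.3% of these sites and a median span of 425 kb. The number of runs depends on the size of the class, 6230 sites in shRB CDT only and 3944 in shCON DHT only. The longest shCON DHT run had 9 sites and extended over 12145 kb of chromosome 5, from 17897763 to 30042471. Its peaks had a median score of 478 and a median width of 556 bp, and 1 of the 9 overlapped a shCON CDT peak. The next had 8 sites over 8177 kb of chromosome 4, from 27350558 to 35527439, with a median score of 447. By the definition of a run, no shRB CDT peak was listed in these stretches. The longest shRB CDT runs also had 9 sites, over 1534 kb of chromosome 5 from 168727125 to 170261205 and over 868 kb of chromosome 3 from 8547154 to 9415223, with median scores of 573 and 478. The longest run of shared sites had 16, within 319 kb of chromosome 12 from 56435240 to 56754633, where shCON CDT had 14 peaks.

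By chromosome, unshared shRB CDT peaks outnumbered unshared shCON DHT peaks by different amounts, and on no chromosome of the full lists did shCON DHT lead beyond counting error. Over the genome there were 1.58 unshared shRB CDT peaks per unshared shCON DHT peak, and the ratio was above 1 on 20 of 22 autosomes. It was highest on chromosome 1, at 2.12 (1.86 to 2.41), with 726 against 343 peaks, although other chromosomes led under some of the alternatives. Next came chromosome 20 with 2.09 (1.62 to 2.70). Chromosome 19 had a ratio of 2.07 (1.72 to 2.496), and chromosome 22 one of 2.06 (1.57 to 2.73). Among autosomes it was lowest on chromosome 4, at 0.869 (0.707 to 1.07), with 179 against 206 peaks. Chromosome Y had 6 against 9. The ratio was 0.913 (0.671 to 1.24) for chromosome X. It was 0.917 (0.624 to 1.34) for chromosome 21, and chromosome 13 had 1.07 (0.788 to 1.46). The shared counts of the lists were close on each chromosome, so the ratio largely follows how many peaks each list had there. Chromosome 1 had 1636 shRB CDT and 1306 shCON DHT peaks in all, with 910 and 963 shared. Chromosome 4 had 512 and 557, with 333 and 351 shared. On chromosomes 21, X and Y the shCON DHT list was also the longer. The ratio is thus not a separate measure of sharing. Chromosome 19 is known as the most gene-dense human chromosome, and chromosomes 4 and 13 as gene-poor. Gene density was not analysed here, and whether the ratio follows it was not tested.

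The share of shCON DHT peaks found in shRB CDT also varied by chromosome, not always in the order of the ratios. Chromosome 19 had the highest share, 78.0% (74.99 to 80.9), followed by chromosome 12 with 75.1% (71.6 to 78.4). The lowest was 59.8% (53.7 to 65.6), on chromosome 18, and chromosome 4 had 63.0% (58.9 to 67.0). The share of shRB CDT peaks found in shCON DHT ranged over the autosomes from 51.2% (48.0 to 54.4) on chromosome 3 to 65.0% (60.7 to 69.2) on chromosome 4, so chromosome 4 was low in one direction and highest in the other.

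In lists of one length the overall ratio fell towards 1 by construction, and the chromosomes still differed. Chromosome 1 then had a ratio of 1.47 (1.27 to 1.69), and chromosome 22 had 1.45 (1.07 to 1.97). Chromosome 4 had 0.665 (0.528 to 0.835), and chromosome 21 had 0.534 (0.334 to 0.841). Among the highest-scoring 50% of every list both turned to the shRB CDT side, with 1.22 (0.865 to 1.73) and 1.14 (0.610 to 2.16). As 24 chromosomes were compared, some intervals can miss 1 by counting error alone.

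**Figure D5:**
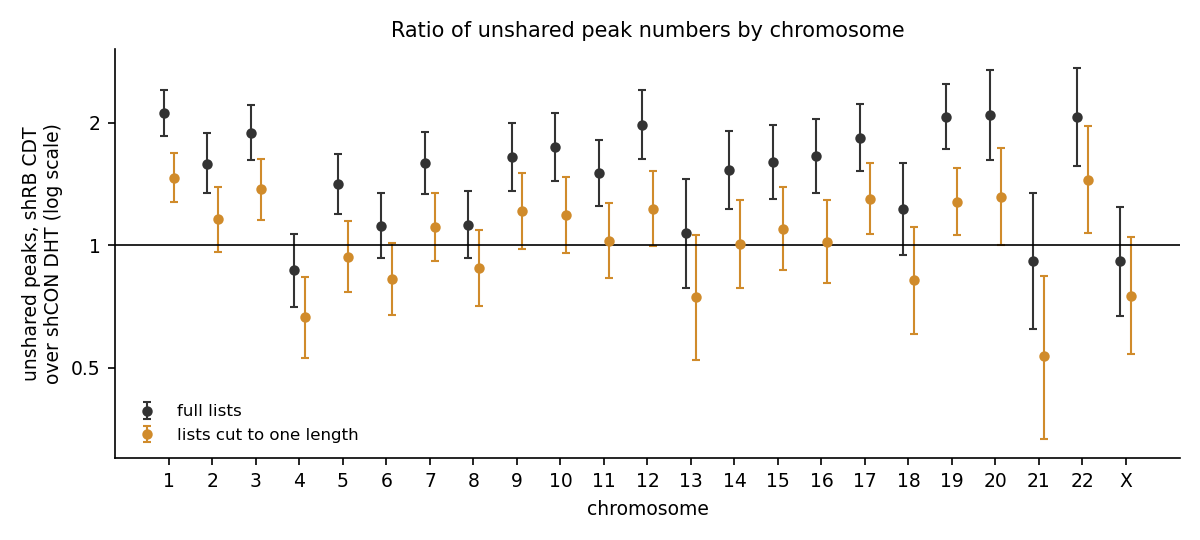
Ratio of the number of unshared shRB CDT peaks to unshared shCON DHT peaks on each chromosome, on a log axis, for the full lists (dark) and for lists cut by score to one length (orange); bars are exact conditional 95% intervals and chromosome Y, with few peaks, is left out. Chromosomes 1, 19, 20 and 22 lie at 2.06 to 2.12 in the full lists, and chromosomes 4, 21 and X below 1 with intervals that include it.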

How the data were processed

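ATAC-seq peak lists of shRB CDT and shCON DHT cells, with shCON CDT as baseline, were analysed. Per the labels, each deposited list combines replicates 1 and 2, and its name records an irreproducible discovery rate of 0.1 and that peaks were filtered, merged and scored. Positions are on hg19, per the submitters' processing notes. For the aligner, the peak caller and a transposase shift, the tool or setting was not given in the sources used here. The lists the authors deposited give a position and a whole-number score per peak; read counts were not analysed here.

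Lists were compared with numpy 2.4.6, scipy 1.17.1 and pandas 2.3.3 under Python 3.11.15. Peaks sharing 1 bp or more were called shared. Score percentiles are midranks within a list. Shares carry exact (Clopper-Pearson) intervals, medians order-statistic intervals. Ties at the cap were broken by width. The code was tested on simulated lists and recovered 12 of 12 planted answers. Regions were named by set rules: the highest-scoring, most remote, most unequal in width or rank, and longest runs, 2 or 3 each. Members, comparisons and rules were chosen with earlier results of these data known, and the counts of peaks in 1 of 2 other lists after these values were seen. Alternatives were other overlap rules, score cuts, equal list lengths, autosomes and a fixed width. Gene names, gene lists, promoters, motifs and sequences were not analysed here: the tables at hand are of GRCh38.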

Additional observations from a re-analysis of the deposited data

How the results depend on the processing

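Values follow the order: share of shCON DHT peaks in shRB CDT, share of shRB CDT peaks in shCON DHT, and the same shares among peaks absent from shCON CDT. With a 50% reciprocal overlap these were 57.5, 50.1, 21.8 and 18.6%. Counting gaps of up to 500 bp as sharing, the first pair was 70.8 and 59.5%. Within the highest-scoring 50% of every list they were 80.4, 68.1, 51.2 and 37.7%, where counterparts below the limit did not count. With lists cut to one length the last 3 were 65.8, 27.6 and 26.6%. With peaks reset to 500 bp the first 3 were 66.6, 56.6 and 28.9%. Among the highest-scoring 20% of peaks, ties by width, 99.4% of shCON DHT and 95.5% of shRB CDT peaks were shared; these became 96.7 and 85.9% with reciprocal overlap, 97.2 and 84.6% in the top 50%, and 96.4 and 92.2% at 500 bp. The width ratio of 1.17 was 1.15 with reciprocal overlap and 1.16 in the top 50%, and the midpoint distance of 96.5 bp was 91.5 and 92.0 bp. The distance from unshared shCON DHT peaks to shRB CDT was 23.8 kb with reciprocal overlap (where some unshared peaks touch), 65.9 kb in the top 50%, 64.6 kb at one length and 47.1 kb at 500 bp; that from unshared shRB CDT peaks to shCON DHT was 35.4 kb with reciprocal overlap, 80.02 kb in the top 50% and 48.8 kb at one length, so the order of these distances turned with reciprocal overlap and in the top 50%, and was level at 500 bp, where both were 47.1 kb. Unshared peaks fell to 1262 in shCON DHT and 2356 in shRB CDT in the top 50%, and to 4134 in shRB CDT at one length. Fewer peaks were compared in these last settings by construction, and for the rest the cause was not tested. Chromosome 4 had the lowest ratio of unshared peaks among autosomes except in the top 50% and at one length, where chromosome 21 was lower; in the top 50% both ratios were above 1, at 1.22 and 1.14. The highest was on chromosome 1 except with reciprocal overlap (chromosome 22, 1.72), in the top 50% (chromosome 3, 3.00) and at 500 bp (chromosome 20, 1.96). No paired analysis was possible because the authors combined a group's replicates, which also meant that neither could be left out. The planned promoter, gene list and motif alternatives were not run, since no hg19 reference was at hand.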
